A study of Mus musculus with 18 samples.

Results

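The genes described here carry cells through the G1/S transition, copy DNA and repair it. They form a list of 47 genes, chosen by symbol and role, out of 54752 genes in a table of RNA counts from mouse liver, and all 47 were among the 21840 genes abundant enough to test. The mice were male C57BL/6 animals, 6 weeks old at the start, of which 45 were enrolled, 15 per group, and the livers of 6 mice per group were sequenced in week 22. CCl4_PTH mice had carbon tetrachloride (CCl4) injected into the peritoneum 2 times per week and PTH by gavage daily. CCl4 mice had the same CCl4 injections with water by gavage. Control mice had olive oil injections and water by gavage. The toxicity of CCl4, a solvent, comes from a radical that cytochrome P450 enzymes of hepatocytes make of it, and long exposure leaves the liver scarred. The labels use both PTH and PZH for Pien Tze Huang (a Chinese patent medicine), and both were taken as 1 preparation. The labels call the CCl4 mice a liver cancer model. Whether the sequenced piece of tissue held tumour, and the time since the last injection, are not given in the sources used here.

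Before S phase, the origin recognition complex with CDC6 and CDT1 loads rings of MCM subunits onto DNA, and geminin holds CDT1 back once replication has begun. Cyclin D and cyclin E kinases free E2F factors from RB proteins, and E2F factors switch on many genes of this list, while CDC45, GINS and MCM10 turn the loaded rings into working helicases. Most hepatocytes of an adult liver are out of the cycle and can re-enter it after injury or loss of tissue, and many of them are polyploid.

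Levels are given as CPM, counts per M library counts scaled with TMM factors, and values of 6 livers are given as the lowest, the median and the highest. A gene "rose", "fell" or "passed" where edgeR's quasi-likelihood test gave a Benjamini-Hochberg adjusted p below 0.05 over all 21840 genes. Log2 fold changes are given with ± SE (standard error), n is 6 livers per group throughout, and gene positions are those of GENCODE M21 on GRCm38. Libraries held 67.2 to 118.9 M counts, of which 35.6 to 79.7 M lay outside ribosomal RNA loci. Single members had between 0 and 11087 counts in a library. Libraries are named by group and by the mouse number in the labels. The 8 hepatocyte marker genes summed to 33038 to 43685 CPM in CCl4_PTH, 17849 to 47079 in CCl4 and 39605 to 56598 in control livers. In bulk tissue, fewer cells of a type and less RNA per cell cannot be told apart.

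After CCl4, more of the list rose than fell, and not as a block. The MCM helicase rings, cyclin D1, the chromatin methylation reader Uhrf1 and the checkpoint kinase Chek1 were higher than in control livers. Mcm10 and the repressor E2f8 fell 4.67-fold and 6.17-fold, and Tk1, Brca2, Pola2 and Rfc3 fell by less. Of the 47 members, 22 rose, 6 fell and 19 did not pass in CCl4 against control. That is 59.6% called, against 47.4% of all genes tested, made up of 26.3% called higher and 21.2% called lower. The median log2 fold change was 0.43 over the members, against 0.051 over all genes tested. Changes are relative to the scaling. When only library sizes were used for scaling, the median over all genes was 0.63, 91.4% of called genes were higher (55.3% with TMM), and 34 members rose while only Mcm10 and E2f8 fell. Of the 19 members that did not pass above, 12 rose under that scaling. They were Ccne2, Cdt1, Orc6, Cdc45, Gins2, Pola1, Prim1, Pole, Rfc5, Rrm2, Fancd2 and Exo1. Of these, Orc6, Gins2, Rrm2 and Exo1 also rose with voom, which kept the TMM factors. The members' median lay 0.38 above that of all genes with TMM and 0.44 above it with library sizes only.

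**Figure D1:**
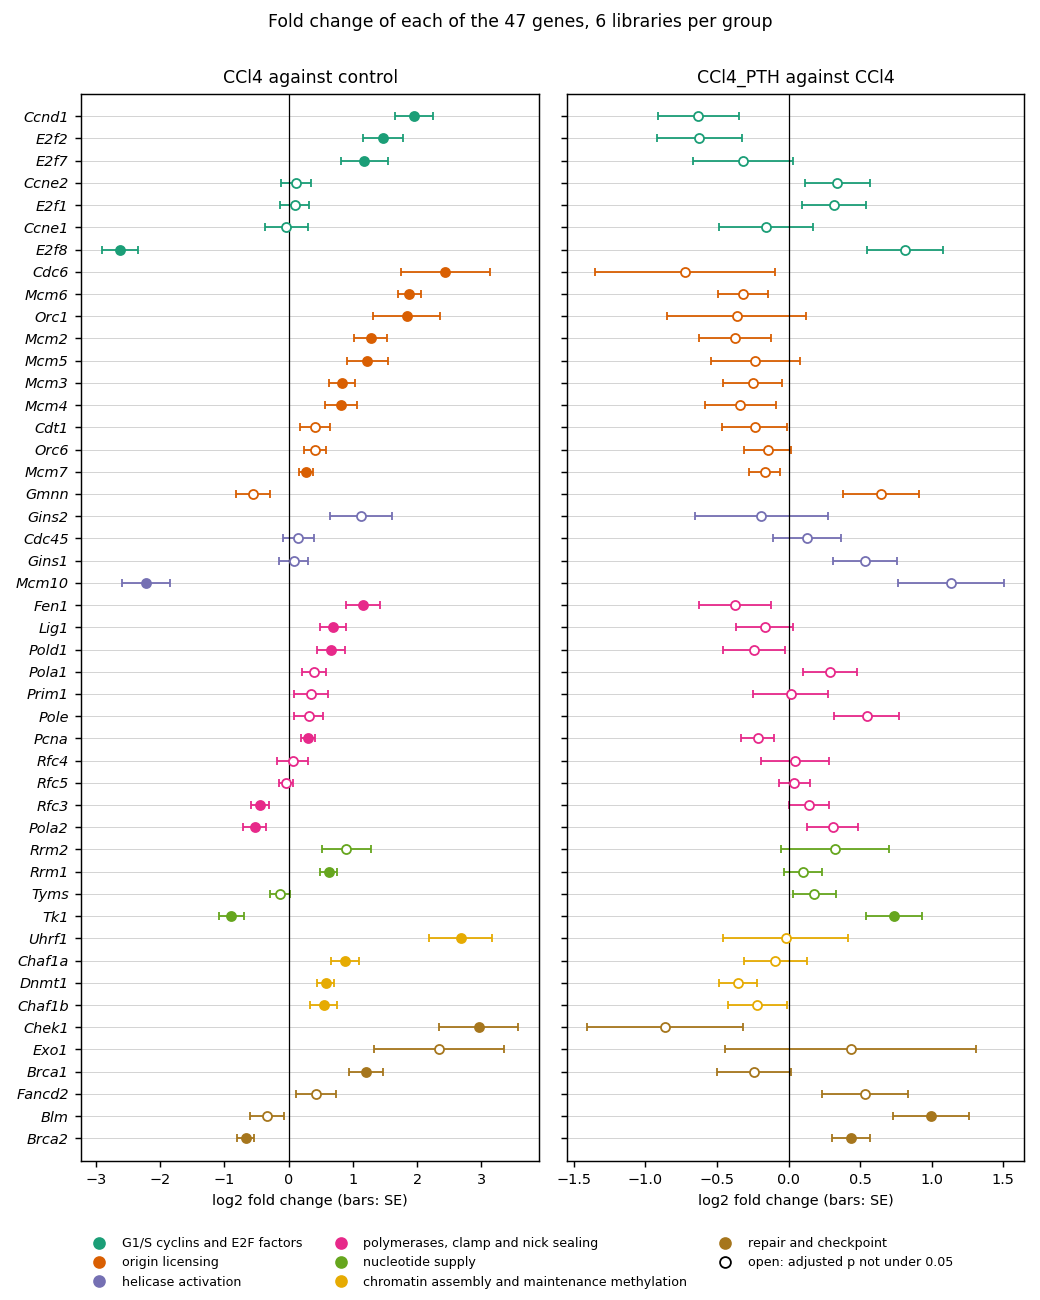
Log2 fold change (horizontal axis) of each of the 47 genes, grouped by role, in CCl4 against control (left) and CCl4_PTH against CCl4 (right), with bars for the SE, and filled points where the adjusted p was below 0.05. On the left 22 filled points lie above 0 and 6 below it, with E2f8 and Mcm10 farthest to the left, and on the right only Tk1, Brca2 and Blm are filled.

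The stretches of promoter below show members that rose (Mcm6, Orc1) and members that fell (Rfc3, Mcm10, E2f8, Tk1). They run 150 bases before to 20 bases after the gene start in RefSeq (GRCm38.p6), 5′ to 3′ on the gene's own strand. Capitals mark the 8-base E2F motifs TTTGGCGC, TTTCGCGC, TTTCCCGC and TTTGCCGC or their reverse complements, searched on both strands with overlapping matches counted. The stretches lie at chr1:128359686-128359855, minus strand (Mcm6), chr4:108579304-108579473, plus strand (Orc1), chr5:151651189-151651358, minus strand (Rfc3), chr2:5012772-5012941, minus strand (Mcm10), chr7:48881577-48881746, minus strand (E2f8) and chr11:117825995-117826164, minus strand (Tk1).
Mcm6: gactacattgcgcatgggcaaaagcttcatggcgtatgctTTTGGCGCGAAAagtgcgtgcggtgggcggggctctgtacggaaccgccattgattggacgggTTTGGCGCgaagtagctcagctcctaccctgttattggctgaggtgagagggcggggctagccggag
Orc1: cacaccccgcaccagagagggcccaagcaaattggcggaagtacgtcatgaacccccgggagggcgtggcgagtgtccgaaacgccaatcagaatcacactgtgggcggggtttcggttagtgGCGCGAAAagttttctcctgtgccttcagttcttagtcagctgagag
Rfc3: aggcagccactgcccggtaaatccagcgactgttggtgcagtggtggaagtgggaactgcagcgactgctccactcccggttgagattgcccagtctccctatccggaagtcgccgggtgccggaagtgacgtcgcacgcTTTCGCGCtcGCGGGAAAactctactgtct
Mcm10: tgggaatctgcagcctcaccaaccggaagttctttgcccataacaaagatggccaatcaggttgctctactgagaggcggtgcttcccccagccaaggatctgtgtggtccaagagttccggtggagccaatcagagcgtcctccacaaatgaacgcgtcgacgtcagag
E2f8: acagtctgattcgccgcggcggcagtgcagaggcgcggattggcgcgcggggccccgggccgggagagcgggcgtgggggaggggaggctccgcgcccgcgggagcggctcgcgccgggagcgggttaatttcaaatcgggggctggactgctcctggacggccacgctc
Tk1: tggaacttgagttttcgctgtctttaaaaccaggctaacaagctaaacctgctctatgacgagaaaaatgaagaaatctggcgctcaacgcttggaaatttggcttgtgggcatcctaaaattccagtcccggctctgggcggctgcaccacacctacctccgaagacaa
Mcm6 held 3 matches, 110, 106 and 47 bases before its start, of which the first 2 overlap, and Orc1 held it 27 bases before. Rfc3 held it 10 bases before the start and again at the first transcribed base. None of these motifs stood in the stretches of Mcm10, E2f8 and Tk1.

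Over the whole RefSeq windows of 300 bases (250 before and 50 after the start), 38 of the 47 members had a window. At least 1 of the motifs stood in 16 of their 46 windows (34.8%), against 744 of all 32851 promoter windows (2.26%). Those 16 windows belonged to 16 members, namely Brca2, Cdc6, Cdt1, Dnmt1, E2f2, E2f7, Lig1, Mcm3, Mcm5, Mcm6, Mcm7, Orc1, Pola1, Pold1, Rfc3 and Uhrf1. Of members with a window, 12 of the 20 that rose after CCl4 held the motif, as did 2 of the 6 that fell and 2 of the 12 that did not pass. A match of letters is a description of the sequence and not a measured binding site. Ccnd1, Ccne2, Exo1, Fancd2, Gins1, Gins2, Gmnn, Mcm4 and Pole had no window in the table.

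Among 7 G1/S cyclins and E2F factors, 3 rose and 1 fell after CCl4 (57.1% called, against 47.4% of all genes tested). Ccnd1 encodes cyclin D1, the cyclin that links growth signals to the cell cycle (chromosome 7, 144929931 to 144939925, with 1100 exon bases shared with LTO1 on the other strand). It had 21.4, 59.3 and 72.1 CPM in CCl4_PTH livers, 45.5, 81.5 and 130.05 in CCl4 livers and 15.5, 18 and 31.2 in control livers. Every CCl4 liver lay above every control, a 3.86-fold rise (log2 fold change 1.95 ± 0.30, edgeR adjusted p = 3.58e-05), while CCl4_PTH 1 lay among the controls. E2f8 encodes an atypical E2F that represses E2F targets (chromosome 7, 48866429 to 48881596). In mouse liver it is known for its part in hepatocyte polyploidy. E2f8 shares 610 of its 5443 exon bases with Gm2788 on the other strand. It had 1.75, 3.27 and 4.85 CPM in CCl4_PTH livers, 1.37, 1.89 and 2.42 in CCl4 livers and 6.92, 10.4 and 20.5 in control livers. All CCl4_PTH livers and all CCl4 livers lay below every control liver. The fall after CCl4 was 6.17-fold (log2 fold change −2.63 ± 0.28, edgeR adjusted p = 7.54e-07). E2f2, an activator, and E2f7, the other atypical repressor, both rose after CCl4. E2f2 had 0.642 to 2.19 CPM in CCl4_PTH, 1.18 to 4.04 in CCl4 and 0.582 to 1.08 in control livers (log2 fold change 1.47 ± 0.31, edgeR adjusted p = 0.000624 after CCl4). E2f7 had 0.455 to 0.912 CPM in CCl4_PTH, 0.306 to 1.28 in CCl4 and 0.19 to 0.556 in control livers (log2 fold change 1.18 ± 0.37, edgeR adjusted p = 0.0121).

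The cyclin E genes and E2f1 did not pass in CCl4 against control, apart from Ccne2 with library sizes only, and their groups overlapped. Ccne1, a partner of CDK2 at the start of S phase, had 0.389, 0.854 and 1.29 CPM in CCl4_PTH livers, 0.68, 0.82 and 1.11 in CCl4 livers and 0.332, 0.948 and 1.53 in control livers (log2 fold change −0.035 ± 0.33, edgeR adjusted p = 0.941). Ccne2, its paralogue, had 0.75, 1.82 and 2.63 CPM in CCl4_PTH livers, 1.12, 1.46 and 1.63 in CCl4 livers and 0.857, 1.33 and 1.71 in control livers (log2 fold change 0.11 ± 0.23, edgeR adjusted p = 0.724). Ccne2 shares 609 exon bases with Ints8 on the other strand. E2f1, the activator that RB restrains, had 1.22, 2.21 and 2.56 CPM in CCl4_PTH livers, 0.902, 1.74 and 2.23 in CCl4 livers and 1.23, 1.42 and 2.0 in control livers (log2 fold change 0.092 ± 0.22, edgeR adjusted p = 0.763). The control livers alone spanned a wide range for Ccne1, with control 1 highest and control 3 lowest.

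**Figure D2:**
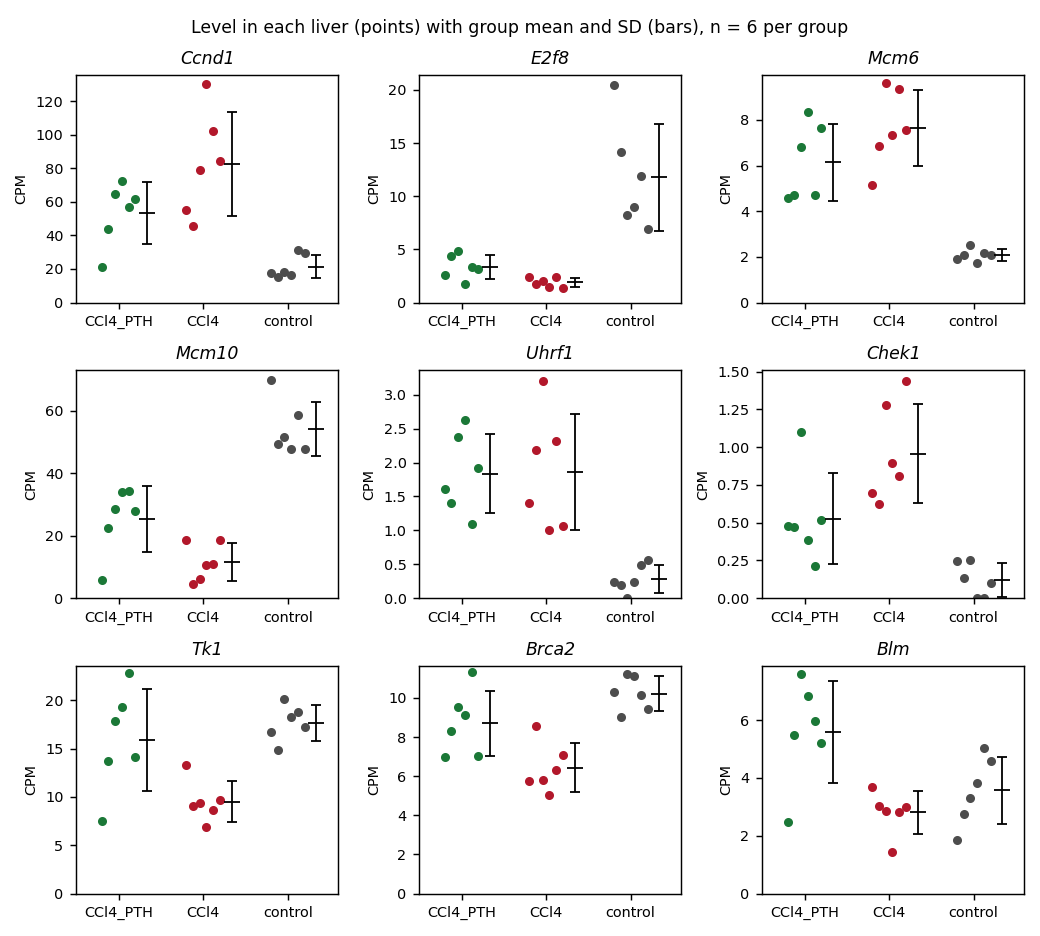
CPM (vertical axis, starting at 0) of 9 of the genes in each liver of the CCl4_PTH, CCl4 and control groups, with the group mean and SD as bars. Ccnd1, Mcm6, Uhrf1 and Chek1 show no CCl4 liver within the control range and lie above it, while E2f8, Mcm10, Tk1 and Brca2 lie below it, and CCl4_PTH 1 is the lowest CCl4_PTH point for Ccnd1, Mcm6, Mcm10, Tk1, Brca2 and Blm.

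Origin licensing was the role with the most rises by count, 8 of its 11 members, and the other 3 did not pass. That is 72.7% called, against 47.4% of all genes tested. By share, chromatin assembly and maintenance methylation stood higher, with 4 of 4. Mcm6 is a subunit of the MCM ring that becomes the replicative helicase (chromosome 1, 128331590 to 128359664). It shares no exon bases with another annotated gene, and its promoter stretch above held 3 matches to the E2F motifs. It had 4.58, 5.77 and 8.35 CPM in CCl4_PTH livers, 5.13, 7.45 and 9.59 in CCl4 livers and 1.75, 2.08 and 2.5 in control livers. No liver of either CCl4-injected group came down to the control range. The rise was 3.68-fold (log2 fold change 1.88 ± 0.18, edgeR adjusted p = 2.87e-07), and the groups' means were 6.13 ± 1.68, 7.64 ± 1.66 and 2.08 ± 0.252 CPM (SD, n = 6, CCl4_PTH, CCl4, control). Mcm2, another subunit of the ring (chromosome 6, 88883474 to 88898780), had 2.25, 3.84 and 4.25 CPM in CCl4_PTH livers, 1.95, 4.85 and 6.69 in CCl4 livers and 1.05, 1.77 and 2.69 in control livers. It rose by 1.27 ± 0.26 in log2 units (edgeR adjusted p = 0.000471), although the lowest CCl4 liver, CCl4 1, lay within the control range. Mcm3, Mcm4, Mcm5 and Mcm7, the remaining subunits of the ring, rose by 0.83, 0.81, 1.22 and 0.27 on the log2 scale, with overlapping groups. The 6 subunits of 1 ring had log2 fold changes between 0.27 and 1.88. Mcm7 shares exons with Cops6 and Ap4m1, and its call was lost without any 1 of 17 of the 18 libraries (it was kept without control 2). The rise of Mcm4 was lost without CCl4 7 (adjusted p = 0.053).

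The loaders of the ring had few counts in control livers. Orc1, the largest subunit of the origin recognition complex, had 69 counts over the 6 controls together, and Cdc6, the loader that joins it, had 41. Of the exon bases of Orc1, 376 are shared with Gm12743 on the other strand. Orc1 had 0.352 to 0.616 CPM in CCl4_PTH, 0.215 to 0.90 in CCl4 and 0 to 0.49 in control livers, and Cdc6 had 0.174 to 0.514 CPM in CCl4_PTH, 0.235 to 0.91 in CCl4 and 0 to 0.245 in control livers. They rose by 1.84 ± 0.52 in log2 units (edgeR adjusted p = 0.00690) and 2.44 ± 0.69 (edgeR adjusted p = 0.00709). Orc6, the smallest subunit of the complex, had 1.52, 1.75 and 2.76 CPM in CCl4_PTH livers, 1.75, 2.1 and 2.85 in CCl4 livers and 1.38, 1.64 and 1.83 in control livers and missed the threshold (log2 fold change 0.41 ± 0.17, edgeR adjusted p = 0.0506). It passed as higher with DESeq2, voom and a minimum count of 50, and without CCl4_PTH 3. Cdt1, the factor that brings MCM to origins, had 1.75, 2.55 and 3.61 CPM in CCl4_PTH livers, 2.05, 2.61 and 5.01 in CCl4 livers and 1.8, 2.01 and 3.21 in control livers, with overlapping groups (log2 fold change 0.41 ± 0.23, edgeR adjusted p = 0.150). Gmnn encodes geminin, the inhibitor of CDT1, and had 1.27, 2.82 and 4.07 CPM in CCl4_PTH livers, 1.1, 1.67 and 2.62 in CCl4 livers and 1.68, 2.56 and 4.06 in control livers. It was the member of this role with the lowest fold change (log2 fold change −0.55 ± 0.27, edgeR adjusted p = 0.0975), and its CCl4 range overlapped those of both other groups. Gmnn passed as lower without CCl4 2 or CCl4_PTH 1.

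With all libraries, none of the 4 genes of helicase activation rose after CCl4 in edgeR with TMM, Cdc45 and Gins2 rose with library sizes only, and Mcm10 fell under both. With TMM 25% of this role was called, against 47.4% of all genes tested. Mcm10 encodes a factor that binds the CMG helicase and is needed for origins to fire (chromosome 2, 4989714 to 5012791). It shares no exon bases with another annotated gene. It had 5.84, 28.1 and 34.3 CPM in CCl4_PTH livers, 4.46, 10.8 and 18.7 in CCl4 livers and 47.8, 50.6 and 69.9 in control livers. The highest CCl4_PTH and CCl4 livers both lay below the lowest control. After CCl4 it fell 4.67-fold (log2 fold change −2.22 ± 0.38, edgeR adjusted p = 0.000126). The fall of Mcm10 and that of E2f8 passed in all 8 other settings and in all 18 fits without 1 library. Cdc45, a core part of the CMG helicase, had 0.673, 0.948 and 1.37 CPM in CCl4_PTH livers, 0.629, 0.855 and 1.15 in CCl4 livers and 0.571, 0.783 and 1.27 in control livers (log2 fold change 0.15 ± 0.24, edgeR adjusted p = 0.648). Gins1, a GINS subunit, had 0.936, 1.23 and 1.64 CPM in CCl4_PTH livers, 0.609, 0.699 and 1.41 in CCl4 livers and 0.686, 0.795 and 0.996 in control livers (log2 fold change 0.078 ± 0.23, edgeR adjusted p = 0.807). Gins2, another GINS subunit that shares 2758 exon bases with Gse1 on the other strand, had 0.764, 1.16 and 3.03 CPM in CCl4_PTH livers, 1.11, 1.48 and 2.55 in CCl4 livers and 0.185, 0.512 and 2.15 in control livers (log2 fold change 1.13 ± 0.48, edgeR adjusted p = 0.0603). For Cdc45 and Gins1 the groups overlapped, in the same livers in which the MCM ring was higher. At an unadjusted p below 0.05, Gins2 passed as well, and DESeq2 and voom called it higher. Without control 2, the highest control for Gins2, edgeR also called it higher (log2 fold change 1.77, adjusted p = 0.00201).

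Of 11 polymerase, clamp and nick-sealing genes, 4 rose (Fen1, Lig1, Pold1, Pcna) and 2 fell (Pola2, Rfc3). That is 54.5% called, near the 47.4% of all genes tested. Fen1 encodes the nuclease that trims flaps of Okazaki fragments (chromosome 19, 10199132 to 10204169). It had 1.49, 2.38 and 3.41 CPM in CCl4_PTH livers, 1.69, 2.99 and 3.85 in CCl4 livers and 0.794, 1.43 and 2.06 in control livers and rose by 1.15 ± 0.26 in log2 units (edgeR adjusted p = 0.00122). Of its exon bases, 2039 are shared with Gm10143 and Tmem258 on the other strand, and without stated strand use those reads cannot be told apart. Lig1, the ligase that joins the fragments (chromosome 7, 13277283 to 13311433), had 2.2, 2.59 and 3.29 CPM in CCl4_PTH livers, 2.03, 2.87 and 4.15 in CCl4 livers and 1.46, 1.79 and 2.32 in control livers and rose by 0.69 ± 0.20 in log2 units (edgeR adjusted p = 0.00897). Pold1, the catalytic subunit of the lagging strand polymerase, rose by 0.66 ± 0.22 in log2 units, and Pcna, the sliding clamp, by 0.30 ± 0.11 in log2 units. Pcna had 9.7 to 14.1 CPM in CCl4_PTH, 11.3 to 16.4 in CCl4 and 9.46 to 13.6 in control livers. Its call was lost in 13 of the 18 fits without 1 library and kept without control 1, CCl4 1, CCl4 2, CCl4_PTH 6 or CCl4_PTH 7. The call of Pold1 was lost without control 2, CCl4 5 or CCl4 7.

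The subunits of polymerase alpha with its primase gave 1 call, a fall of Pola2. Pola1, the catalytic subunit of polymerase alpha on chromosome X, had 5.38, 6.04 and 7.08 CPM in CCl4_PTH livers, 3.67, 4.56 and 6.94 in CCl4 livers and 1.78, 4.06 and 4.56 in control livers (log2 fold change 0.39 ± 0.19, edgeR adjusted p = 0.0996). Pola2, its regulatory subunit, had 2.5, 5.09 and 5.61 CPM in CCl4_PTH livers, 3.02, 3.81 and 4.75 in CCl4 livers and 3.95, 5.49 and 6.26 in control livers. It fell after CCl4 (log2 fold change −0.53 ± 0.18, edgeR adjusted p = 0.0186), with overlapping groups, and with library sizes only its fold change was 0.056 and did not pass. Prim1, the primase that lays the RNA primer, had 0.994, 1.39 and 2.1 CPM in CCl4_PTH livers, 0.854, 1.58 and 1.96 in CCl4 livers and 0.609, 1.19 and 1.73 in control livers (log2 fold change 0.34 ± 0.27, edgeR adjusted p = 0.304). Pole, the leading strand polymerase, had 2.41, 4.16 and 5.38 CPM in CCl4_PTH livers, 1.81, 2.89 and 3.36 in CCl4 livers and 1.15, 2.37 and 3.37 in control livers (log2 fold change 0.31 ± 0.23, edgeR adjusted p = 0.281).

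Of the clamp loader subunits, which place PCNA on DNA, Rfc3 fell after CCl4. Rfc3 had 2.27, 2.48 and 3.1 CPM in CCl4_PTH livers, 1.88, 2.33 and 2.68 in CCl4 livers and 2.5, 3.09 and 3.71 in control livers, with overlapping groups. Its log2 fold change was −0.45 ± 0.14 (edgeR adjusted p = 0.0120), and with library sizes only it was 0.15 and did not pass. Its promoter stretch held 2 matches to the E2F motifs. Rfc4 had 0.755, 1.01 and 1.86 CPM in CCl4_PTH livers, 0.959, 1.03 and 1.42 in CCl4 livers and 0.68, 1.02 and 1.63 in control livers (log2 fold change 0.060 ± 0.24, edgeR adjusted p = 0.859). Rfc5 had 5.04, 6.02 and 7.6 CPM in CCl4_PTH livers, 5.15, 5.84 and 6.73 in CCl4 livers and 5.43, 5.97 and 6.69 in control livers (log2 fold change −0.040 ± 0.11, edgeR adjusted p = 0.791). Rfc5 shares 499 exon bases with Wsb2 on the other strand.

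In nucleotide supply, 1 of 4 genes rose and 1 fell after CCl4 (50% called, near the 47.4% of all genes tested). Rrm1, the large subunit of ribonucleotide reductase, which makes deoxyribonucleotides (chromosome 7, 102441695 to 102469771), had 7.2, 8.41 and 9.83 CPM in CCl4_PTH livers, 6.47, 7.66 and 9.26 in CCl4 livers and 3.83, 5.1 and 7.02 in control livers. It rose by 0.62 ± 0.13 in log2 units (edgeR adjusted p = 0.000835), with CCl4 1 and CCl4 5 below the highest control. Rrm2, the small subunit made in S phase, had 2.13, 4.02 and 6.82 CPM in CCl4_PTH livers, 1.75, 3.31 and 4.56 in CCl4 livers and 0.859, 1.12 and 3.71 in control livers and did not pass (log2 fold change 0.90 ± 0.38, edgeR adjusted p = 0.0613), with control 1 and control 8 inside the CCl4 range. Rrm2 passed as higher with DESeq2 and voom, and without control 1, control 8 or CCl4 5. Tyms, which makes thymidylate from deoxyuridylate, had 2.33, 3.49 and 4.12 CPM in CCl4_PTH livers, 2.49, 3.01 and 3.72 in CCl4 livers and 2.99, 3.11 and 4.12 in control livers (log2 fold change −0.14 ± 0.15, edgeR adjusted p = 0.483). Tk1 encodes the cytosolic thymidine kinase of the salvage route (chromosome 11, 117815526 to 117826092). It had 7.52, 16 and 22.8 CPM in CCl4_PTH livers, 6.92, 9.26 and 13.4 in CCl4 livers and 14.9, 17.7 and 20.1 in control livers. Every CCl4 liver lay below every control, and it fell 1.86-fold (log2 fold change −0.89 ± 0.20, edgeR adjusted p = 0.00102), a call lost with library sizes only (log2 fold change −0.31, adjusted p = 0.231).

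All 4 genes of chromatin assembly and maintenance methylation rose after CCl4 (100% called, against 47.4% of all genes tested). Uhrf1 encodes the protein that recognises hemimethylated DNA behind the fork and recruits DNMT1 (chromosome 17, 56303321 to 56323486). It had 1.1, 1.76 and 2.63 CPM in CCl4_PTH livers, 1.01, 1.79 and 3.2 in CCl4 livers and 0, 0.236 and 0.564 in control livers, with 117 counts over the 6 controls together. It rose by 2.68 ± 0.49 in log2 units (edgeR adjusted p = 0.000185), and no CCl4_PTH or CCl4 liver came down to the control range. Dnmt1, the maintenance DNA methyltransferase (chromosome 9, 20907209 to 20959888), had 12.4, 14.6 and 15.3 CPM in CCl4_PTH livers, 12.8, 17.4 and 25 in CCl4 livers and 10.2, 12.4 and 13.4 in control livers and rose by 0.58 ± 0.13 in log2 units (edgeR adjusted p = 0.00143). Its spread was widest after CCl4, where CCl4 4 stood highest. Chaf1a and Chaf1b, subunits of the CAF-1 histone chaperone, rose by 0.88 and 0.54 on the log2 scale. The call of Chaf1b was lost in 11 of 18 fits without 1 library and kept without control 1, control 5, CCl4 2, CCl4 5, CCl4 8, CCl4_PTH 2 or CCl4_PTH 7. Chaf1a shares 4648 of its 8854 exon bases with Ubxn6 on the other strand.

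Of 6 repair and checkpoint genes, 2 rose and 1 fell after CCl4 (50% called, near the 47.4% of all genes tested). Chek1, the kinase that halts the cycle when forks stall (chromosome 9, 36708482 to 36727065), had 0.214, 0.473 and 1.1 CPM in CCl4_PTH livers, 0.622, 0.852 and 1.44 in CCl4 livers and 0, 0.117 and 0.254 in control livers, with 48 counts over the controls together. It rose by 2.96 ± 0.62 in log2 units (edgeR adjusted p = 0.000605), with no CCl4 liver in the control range. Brca1 and Brca2, which act together in homologous recombination, parted. Brca1 had 1.5 to 4.59 CPM in CCl4_PTH, 3.11 to 3.9 in CCl4 and 0.80 to 2.52 in control livers and rose by 1.21 ± 0.26 in log2 units (edgeR adjusted p = 0.000954). Brca2 (chromosome 5, 150522630 to 150570329) had 6.97, 8.71 and 11.3 CPM in CCl4_PTH livers, 5.03, 6.04 and 8.58 in CCl4 livers and 9.03, 10.2 and 11.2 in control livers. All CCl4 livers lay below all controls, a fall (log2 fold change −0.67 ± 0.13, edgeR adjusted p = 0.000438) that did not pass with library sizes only (−0.08, adjusted p = 0.717). Fancd2, of the crosslink repair pathway, had 0.455, 0.60 and 1.28 CPM in CCl4_PTH livers, 0.255, 0.538 and 0.678 in CCl4 livers and 0.248, 0.369 and 0.49 in control livers (log2 fold change 0.43 ± 0.31, edgeR adjusted p = 0.273). Exo1, an end-resecting nuclease, had 0.126, 0.336 and 0.544 CPM in CCl4_PTH livers, 0, 0.238 and 0.525 in CCl4 livers and 0, 0 and 0.29 in control livers, with 19 counts over the controls, all of them in control 5 (log2 fold change 2.34 ± 1.01, edgeR adjusted p = 0.0649). Exo1 passed as higher without control 5, where all remaining controls were at 0, without CCl4 5 and with voom. Blm, the helicase that undoes recombination intermediates (chromosome 7, 80454733 to 80535119), had 2.48, 5.73 and 7.58 CPM in CCl4_PTH livers, 1.45, 2.93 and 3.69 in CCl4 livers and 1.87, 3.58 and 5.04 in control livers and did not pass in CCl4 against control (log2 fold change −0.34 ± 0.26, edgeR adjusted p = 0.302).

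The second comparison asked what daily PTH did in mice that also received CCl4. Tk1, Brca2 and Blm were higher in CCl4_PTH than in CCl4 livers, and the other 44 members did not pass. The 3 rises are 6.38% of the members, against 12.1% of all genes tested, made up of 7.1% called higher and 4.95% called lower. The members' median was −0.092, against −0.030 over all genes, and log2 fold changes lay between −0.86 (Chek1) and 1.13 (Mcm10). No member fell by edgeR, DESeq2 or voom. At an unadjusted p below 0.05, edgeR found 11 members, 8 higher and 3 lower, DESeq2 found 8 higher and 3 lower, and voom found 9 higher and 3 lower. Scaled by library size alone, all genes had a median of −0.13, 43.4% of called genes were higher in place of 58.9%, and no member passed.

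Tk1, with the values given above, was higher in CCl4_PTH than in CCl4 livers by 0.74 ± 0.20 in log2 units (edgeR adjusted p = 0.0197). Of the CCl4_PTH livers, only CCl4_PTH 1 lay below the CCl4 median. Brca2 was higher by 0.44 ± 0.13 in log2 units (edgeR adjusted p = 0.0373), with overlapping groups. Blm was higher by 0.99 ± 0.26 in log2 units, a 1.99-fold difference (edgeR adjusted p = 0.0198). All CCl4_PTH livers except CCl4_PTH 1 lay above the highest CCl4 liver for Blm. The call of Blm held in all 18 fits without 1 library, that of Tk1 was lost without CCl4_PTH 7 (adjusted p = 0.0597), and that of Brca2 was lost in 8 of the 18, namely without CCl4 1, CCl4 4, CCl4 5, CCl4 7, CCl4_PTH 2, CCl4_PTH 3, CCl4_PTH 6 or CCl4_PTH 7. In a fit of these 2 groups alone, Tk1 and Brca2 did not pass. Tk1 and Brca2 had fallen in CCl4 against control. Both comparisons use the same CCl4 libraries, so each value is given on its own side and no relation between the comparisons was computed.

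Mcm10 and E2f8 lay just outside the threshold. Mcm10 was higher in CCl4_PTH than in CCl4 livers by 1.13 ± 0.37 in log2 units (edgeR adjusted p = 0.0526), and E2f8 by 0.81 ± 0.27 in log2 units (edgeR adjusted p = 0.0522). For Mcm10, 5 of 6 CCl4_PTH livers lay above the highest CCl4 liver, and CCl4_PTH 1 was the exception with 5.84 CPM. Both passed with DESeq2 and with a minimum count of 50. Mcm10 also passed with voom, and E2f8 without ribosomal RNA loci and in a fit of these 2 groups alone. Of the 18 fits without 1 library, Mcm10 passed in 3 and E2f8 in 6. Without CCl4_PTH 1, 8 members were higher (Tk1, Brca2 and Blm with Gmnn, Pola2, Pole, Mcm10 and E2f8), and without CCl4_PTH 7 only Blm was. The log2 fold changes of Gmnn, Pola2 and Pole with all libraries were 0.65 ± 0.27, 0.31 ± 0.18 and 0.55 ± 0.23 (edgeR adjusted p = 0.119, 0.276 and 0.125). Gmnn passed as higher with voom too. Gins1 (log2 fold change 0.53 ± 0.23, edgeR adjusted p = 0.130) passed only without CCl4 5, and Dnmt1 (log2 fold change −0.35 ± 0.13, edgeR adjusted p = 0.0878) was called lower only without CCl4 1. All 11 licensing genes except Gmnn had negative log2 fold changes, between −0.72 and −0.15, and none of them passed.

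In CCl4_PTH against control, 18 members rose, 2 fell (E2f8 and Mcm10) and 27 did not pass. That is 42.6% called, against 27.7% of all genes tested, made up of 17.4% called higher and 10.3% called lower, and the members' median was 0.53, against 0.037. Under the scaling by library size alone, all genes had a median of 0.51, 96.4% of called genes were higher (62.8% with TMM), 36 members rose and only E2f8 fell. Uhrf1 (log2 fold change 2.66 ± 0.49, edgeR adjusted p = 0.000592), Mcm6 (log2 fold change 1.56 ± 0.18, edgeR adjusted p = 8.34e-06) and Ccnd1 (log2 fold change 1.32 ± 0.29, edgeR adjusted p = 0.00268) rose. Rrm1 (log2 fold change 0.72 ± 0.13, edgeR adjusted p = 0.000632) and Pole (log2 fold change 0.86 ± 0.23, edgeR adjusted p = 0.00948) rose too. For Rrm1 and Pola1 no CCl4_PTH liver overlapped the control range. Pola1 (log2 fold change 0.68), Pole, Rrm2 (1.22), Fancd2 (0.96) and Exo1 (2.77) rose here and had not passed in CCl4 against control, although none of the 5 passed in CCl4_PTH against CCl4.

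E2f8 was lower in CCl4_PTH than in control livers (log2 fold change −1.81 ± 0.27, edgeR adjusted p = 9.37e-05), and so was Mcm10 (log2 fold change −1.09 ± 0.37, edgeR adjusted p = 0.0341). The call of Mcm10 was lost without control 1, control 5, CCl4_PTH 2 or CCl4_PTH 8, and with library sizes only. Tk1 (log2 fold change −0.15, edgeR adjusted p = 0.602) and Brca2 (−0.23, edgeR adjusted p = 0.213) did not pass against control. Some of the rises lay near the threshold. Without control 3 or without CCl4_PTH 3, 10 members rose in place of 18. The calls of Exo1, E2f2, Mcm3, Orc1, Fen1, Rrm2, Mcm5 and Fancd2 were lost in 15, 13, 12, 8, 7, 6, 5 and 4 of the 18 fits without 1 library, in that order of genes. Every such fit except that without CCl4_PTH 7 lost at least 1 call.

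**Figure D3:**
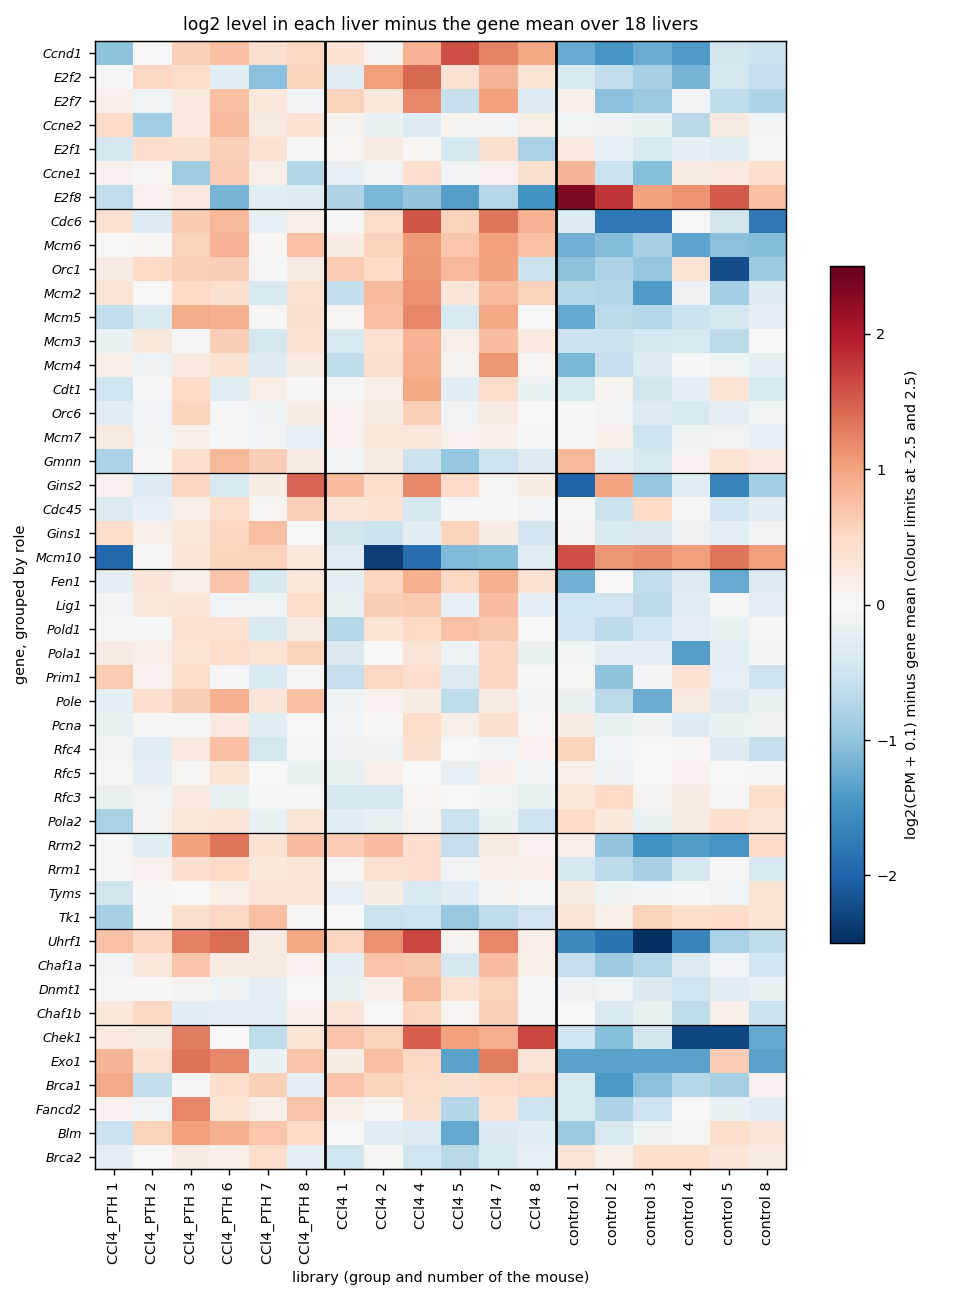
Log2(CPM + 0.1) of each of the 47 genes (rows, by role) in each of the 18 livers (columns) minus the gene's mean over all livers, with colour limits 2.5 to either side of 0. Mcm6 and Uhrf1 lie above their means in all CCl4 livers, but near white in CCl4 1 for Mcm6 and in CCl4 5 and CCl4 8 for Uhrf1. E2f8 is blue in all CCl4 livers. CCl4 4 is the reddest of its group for most licensing genes, and CCl4_PTH 1 is blue for Mcm10, Tk1 and Pola2.

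The livers of 1 group differed among themselves along much of the list. The mean log2 CPM over the 47 members was 1.17 to 1.68 in CCl4_PTH, 1.11 to 1.7 in CCl4 and 0.574 to 0.962 in control livers. The control livers lay below both other groups, which overlapped each other. CCl4 4 was the highest CCl4 liver for 22 members, and CCl4 5 the lowest for 18. CCl4_PTH 6 was the highest CCl4_PTH liver for 19 members, and CCl4_PTH 1 the lowest for 18. CCl4_PTH 7 was the lowest for 15, so the low end of that group was shared by 2 livers. Helicase activation genes summed to 8.95 to 38 CPM in CCl4_PTH, 7.69 to 22.3 in CCl4 and 50 to 71.9 in control livers, a sum that Mcm10 dominates.

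Markers of other liver cells moved in the same livers, and their part in the results above was not tested. After CCl4, 7 of 8 macrophage, 7 of 8 T and NK cell, 6 of 6 B and plasma cell, 4 of 5 tested neutrophil, 6 of 6 cholangiocyte and 5 of 7 stellate and myofibroblast markers rose, and 4 of 8 hepatocyte markers fell. Of 6 endothelial markers 3 rose and 2 fell, and of 5 tested erythroid markers 1 rose and 2 fell. Macrophage markers summed to 239 to 599.93 CPM in CCl4_PTH, 358 to 976 in CCl4 and 140.06 to 216 in control livers, and CCl4 4 had the highest sum. T and NK cell markers summed to 1.29 to 10.7, 2.71 to 32.3 and 1.27 to 3.12 CPM in CCl4_PTH, CCl4 and control livers, again highest in CCl4 4. Cholangiocyte markers summed to 58.8 to 254, 91.9 to 175 and 11.9 to 26.7 CPM in the same order of groups, and neutrophil markers summed to 4.43 to 145, 5.58 to 71.9 and 0.521 to 1.11 CPM. CCl4_PTH 1 held the highest sum of both in its group. By mean log2 CPM over the cholangiocyte markers, CCl4_PTH 3 was highest (2.44) and CCl4_PTH 1 had 2.19. CCl4_PTH 1 also held its group's highest hepatocyte and stellate sums. Its macrophage, T and NK cell, B and plasma cell, endothelial and erythroid sums were the lowest of the group. Stellate and myofibroblast markers summed to 228 to 608, 247 to 501 and 63.5 to 83.2 CPM, and B and plasma cell markers summed to 6.33 to 29.5, 8.96 to 19.7 and 2.39 to 5.55 CPM. Endothelial markers summed to 172 to 278, 184 to 222 and 202 to 233 CPM, and erythroid markers summed to 54.9 to 175, 136 to 238 and 127 to 271 CPM. Of the neutrophil genes, Ly6g was at 0 in 3 CCl4_PTH, 2 CCl4 and all 6 control livers, and Mpo in 3 CCl4 and all 6 control livers. In CCl4_PTH against CCl4, 1 macrophage marker rose and 3 fell, 1 hepatocyte and 1 endothelial marker rose, and no marker of the other lists passed by edgeR.

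Per kilobase of exon, the order of the members differed between the groups. In CCl4_PTH livers the highest medians were Ccnd1 (12.6 CPM per kb), Pcna (4.86), Mcm10 (3.66) and Tk1 (3.08). In CCl4 livers they were Ccnd1 (17.3 CPM per kb), Pcna (5.32) and Dnmt1 (2.36), and Mcm10 stood at rank 7 (1.41). In control livers Mcm10 came first (6.58 CPM per kb), ahead of Pcna (4.45), Ccnd1 (3.83), Tk1 (3.41) and E2f8 (1.92). The control ranges of Mcm10 and Pcna did not overlap, while those of Pcna, Ccnd1 and Tk1 ran into their neighbours in this order. E2f8 stood at rank 26 in CCl4_PTH, rank 36 in CCl4 and rank 5 in control livers.

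**Figure D4:**
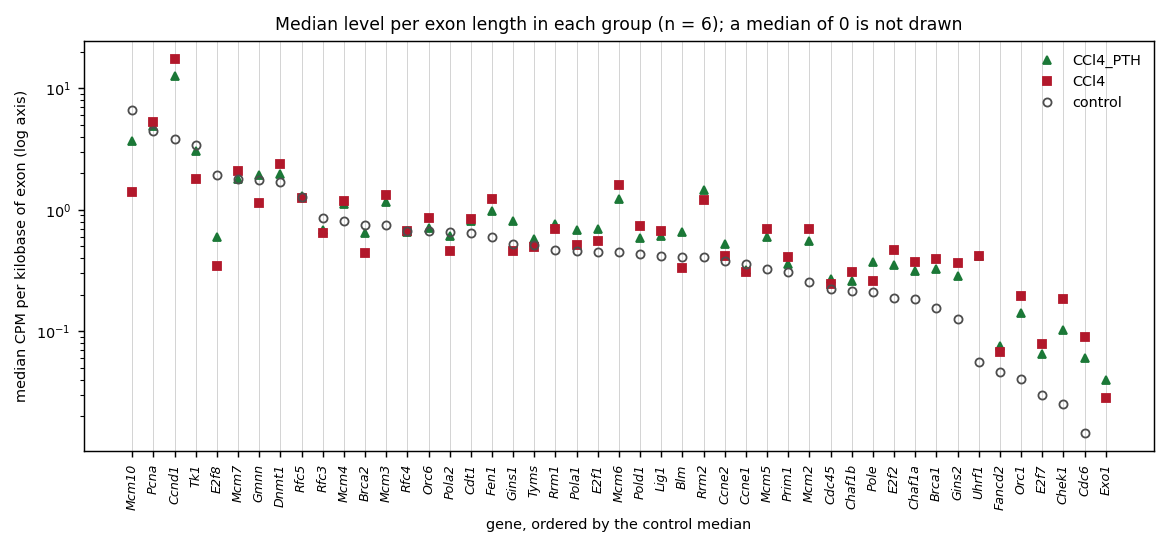
Median CPM per kilobase of exon (log axis) of the 47 genes in CCl4_PTH, CCl4 and control livers, ordered by the control median, with 6 livers per group and a median of 0 not drawn. Mcm10 and E2f8 have their control symbols above the other groups', by less over CCl4_PTH than over CCl4. The genes at the low end on the right have their control symbols lowest.

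Other genes of the same pathways, from lists that hold none of the members, were set beside these results. Of 39 other replisome genes, 13 rose and 6 fell after CCl4 (median 0.060). Of 24 other G1/S regulators 11 rose and 3 fell (median 0.17), and of 40 other repair and checkpoint genes 10 rose and 9 fell (median 0.085). Of 20 mitosis genes, 19 rose and 1 did not pass, with a median of 2.63, and with library sizes only all 20 rose. The shares called were 48.7%, 58.3%, 47.5% and 95% in that order of lists, against 47.4% of all genes tested. The replisome and repair lists thus lay near the share of all genes. With library sizes only the rises in the first 3 lists numbered 27, 20 and 25, and their falls 0, 0 and 1.

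Pold4, a small subunit of polymerase delta, had 4.59 to 6.51 CPM in CCl4_PTH, 7.07 to 9.66 in CCl4 and 2.5 to 4.96 in control livers and rose after CCl4 (log2 fold change 1.06 ± 0.16, edgeR adjusted p = 2.37e-05). Pold4 shares 286 of its 1164 exon bases with AC109138.7 on the same strand. Gins4, a GINS subunit, had 3.12 to 6.15 CPM in CCl4_PTH, 2.78 to 4.52 in CCl4 and 5.9 to 8.02 in control livers and fell (log2 fold change −1.01 ± 0.15, edgeR adjusted p = 2.89e-05), although with library sizes only its fall did not pass (−0.41). Rbl1, the RB relative p107, had 3.43 to 4.55 CPM in CCl4_PTH, 2.87 to 9.68 in CCl4 and 0.977 to 1.41 in control livers and rose (log2 fold change 2.35 ± 0.22, edgeR adjusted p = 2.44e-07). Ccna2, the S and G2 cyclin, had 1.75 to 2.58 CPM in CCl4_PTH, 1.86 to 3.74 in CCl4 and 0.254 to 0.825 in control livers and rose (log2 fold change 2.33 ± 0.27, edgeR adjusted p = 1.68e-06). Ccna2 shares 510 exon bases with Exosc9 on the other strand. Nbn, of the MRN break sensor, had 7.46 to 10.1 CPM in CCl4_PTH, 6.74 to 8.14 in CCl4 and 9.96 to 13.1 in control livers and fell (log2 fold change −0.66 ± 0.096, edgeR adjusted p = 1.82e-05), a fall that did not pass with library sizes only. Among mitosis genes, Mki67, a marker of cycling cells, had 10.9, 12 and 15.5 CPM in CCl4_PTH livers, 9.76, 19.1 and 21 in CCl4 livers and 1.61, 1.96 and 2.66 in control livers and rose by 3.16 ± 0.18 in log2 units (edgeR adjusted p = 7.55e-10). Cenpe, a kinetochore motor, had 1.35 to 1.91 CPM in CCl4_PTH, 1.77 to 3.05 in CCl4 and 0.151 to 0.352 in control livers and rose by 3.43 ± 0.22 in log2 units (edgeR adjusted p = 2.48e-09). Both mitosis genes changed more, on the log2 scale, than any member of the list.

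In CCl4_PTH against CCl4, 3 other replisome genes rose and 1 fell, 2 other G1/S regulators rose and 2 fell, 1 other repair gene (Atm) rose, and 1 mitosis gene (Mki67) fell. The shares called were 10.3%, 16.7%, 2.5% and 5% in that order of lists, against 12.1% of all genes tested. Rpa1, the large subunit of the single-strand binding protein, had 12.5, 17.7 and 21.6 CPM in CCl4_PTH livers, 11, 13.1 and 14.6 in CCl4 livers and 12.3, 13.6 and 16.7 in control livers and was higher by 0.44 ± 0.11 in log2 units (edgeR adjusted p = 0.0140). Rbl2, the RB relative p130 that keeps resting cells out of the cycle, had 31.7, 36.9 and 43.8 CPM in CCl4_PTH livers, 18.7, 25.1 and 30.6 in CCl4 livers and 33.9, 38.6 and 43.9 in control livers. Of its 7558 exon bases, 1585 are shared with Aktip and Gm45464 on the other strand. Rbl2 was higher in every CCl4_PTH liver than in any CCl4 liver (log2 fold change 0.56 ± 0.11, edgeR adjusted p = 0.00488). Atm, the kinase that signals double-strand breaks, had 21, 24.5 and 27.9 CPM in CCl4_PTH livers, 15.7, 17.7 and 20.9 in CCl4 livers and 19.4, 21.2 and 26.4 in control livers, also without overlap of these 2 groups (log2 fold change 0.44 ± 0.097, edgeR adjusted p = 0.00790). Mki67 was lower (log2 fold change −0.50 ± 0.16, edgeR adjusted p = 0.0472), a call lost in 16 of 18 fits without 1 library and kept without CCl4 5 or CCl4_PTH 8. Under library sizes only none of these 4 calls held.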

How the data were processed

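Long RNA of liver was measured in 18 mice, 6 per group. TRIzol RNA was depleted of ribosomal RNA and made into NEBNext libraries for paired HiSeq reads, per the labels' protocols. Tools named, with no role, in the submitters' processing notes are HISAT2 2.2.1, Bowtie2 2.5.1, StringTie 2.1.5, FastQC 0.11.9 and cutadapt 4.2, and the build named is GRCm38. The counting step, its annotation and its use of strand are not given in the sources used here, so reads of genes that overlap on either strand cannot be told apart. What the authors deposited is a table of estimated counts, whole numbers with no scaling to depth, and rounding changed 0 values.

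All 3 comparisons came from 1 fit of edgeR 4.0.16 (quasi-likelihood F test, robust, TMM factors, filterByExpr with a minimum count of 10, 3 groups, no block) in R 4.3.3, adjusted over the 21840 genes kept of 54752, with a threshold of 0.05. Each SE was taken as the size of the log2 fold change over the root of its F value. The fit was tested on simulated counts. Libraries of a group all differed beyond sampling noise, with a chi-square per gene of at least 26.9 in 45 pairs. The 357 ribosomal RNA loci took 30.6% to 55.8% of the counts. Gene positions and overlaps are from GENCODE M21 (GRCm38), and promoter sequences from RefSeq (GRCm38.p6). Alternatives were DESeq2 1.42.0, voom with quality weights (limma 3.58.1), library sizes only, no ribosomal RNA loci, no filter, a minimum count of 50, 2 groups only, the mouse number as a block, and leaving out each library. DESeq2 gives some adjusted p as NA, and these were not counted as lost calls.

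The members and the lists were chosen with earlier results of these data known. Values are given for members that had the 2 smallest p of their role, that fell or did not pass in CCl4 against control, that passed in CCl4_PTH against CCl4 (up to 10), or that had the 6 smallest p among those past the threshold in CCl4_PTH against control. Of each other pathway list, the 2 genes with the smallest p after CCl4 and the 1 with the smallest p in CCl4_PTH against CCl4 are named, of which 1 gene is not reported here. Other members are given by range or count. The small RNA libraries of the study were not analysed here.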

Additional observations from a re-analysis of the deposited data

Results flagged for a closer look

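In 6 of 105 groups of 6 livers that were tested (the named members in each group and the mean over the list), 1 liver stood apart, with a gap to its nearest neighbour above 0.625 of the group's whole range. Chance alone gives this in about 1 in 20 groups. CCl4_PTH 8 had 3.03 CPM of Gins2, against 0.764 to 1.57 CPM in the other CCl4_PTH livers. CCl4_PTH 3 had 3.10 CPM of Rfc3, against 2.27 to 2.55 CPM in the others, and 1.10 CPM of Chek1, against 0.214 to 0.519 CPM. Among the controls, control 2 had 2.15 CPM of Gins2, against 0.185 to 0.857 CPM in the others. Control 4 had 1.78 CPM of Pola1, the lowest of its group, against 3.99 to 4.56 CPM in the others. Control 5 had 0.290 CPM of Exo1, which was at 0 in the other 5 controls. CCl4_PTH 3 was the only liver that stood apart for 2 genes.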

How the results depend on the processing

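The counts of members that rose or fell in CCl4 against control moved by more than 1.5 times only with library sizes only (34 higher, 2 lower), among the settings tried. With the mouse number as a block, 7 calls were lost in that comparison (Pcna, Rfc3, Pola2, Pold1, Mcm7, Chaf1b and Lig1), while Rrm2 and Exo1 passed. In CCl4_PTH against CCl4 the members higher numbered 5 with DESeq2, 5 with a minimum count of 50, 5 with voom and 0 with library sizes only, and 1 to 8 without 1 library, while the members lower numbered 0 to 1 without 1 library. All genes called there numbered 1097 with library sizes only, 4167 with voom and 1509 to 3854 without 1 library. In CCl4_PTH against control, 36 members were higher with library sizes only and 10 to 18 without 1 library, 1 was lower with library sizes only, 1 without a filter and 1 to 2 without 1 library, and 9912 genes were called with library sizes only. The mouse numbers did not pair the livers: over 13 same-numbered pairs, deviations correlated between −0.209 and 0.0833, and 1 library correlated best with its own number. With the number as a block, 0 members were higher in CCl4_PTH against CCl4, so that Tk1, Brca2 and Blm did not pass (84 genes called), and 5 were higher and 1 lower in CCl4_PTH against control (3343 genes called). Some fold changes changed sign in CCl4 against control, among them those of Pola2 and Rfc3, which had been called lower. With library sizes only the log2 fold changes that changed sign were 0.49 (Ccne1), 0.056 (Pola2), 0.15 (Rfc3), 0.54 (Rfc5), 0.43 (Tyms) and 0.28 (Blm). With voom Ccne1 was 0.20. With the block E2f1 was −0.021 and Gins1 −0.086. Without 1 library, they ran between −0.23 and 0.15 (Ccne1), −0.015 and 0.18 (Ccne2), −0.053 and 0.18 (E2f1), −0.15 and 0.13 (Gins1), and −0.072 and 0.20 (Rfc4). The cause was not tested. Low counts limit Exo1, Cdc6, Orc1, Chek1 and Uhrf1, each with 0 counts in at least 1 control.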
